A study of Caenorhabditis elegans with 9 samples.

Results

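The genes described here are 10 Argonaute genes of Caenorhabditis elegans, alg-1, alg-2, alg-3, alg-4, prg-1, csr-1, rde-1, ergo-1, hrde-1 and wago-1, taken from a list of gene names with all of their probe sets on the array. The annotation gave them 18 probe sets, with 1 for each of 5 genes, 2 for each of 2 genes and 3 for each of 3 genes. The annotation paired 17118 genes in all with probe sets that name no other gene. RNA was measured on 9 one-colour whole-genome arrays of wild type Bristol N2 worms, 3 arrays at the fourth larval stage (L4), 3 at Day 6 and 3 at Day 15 of adulthood. At all ages the worms were kept at 20 °C on E. coli OP50, and 100 ng of total RNA from each of 3 independently grown populations was amplified. Both adult ages were held on plates with 0.05 mg/mL FUdR, an inhibitor of DNA synthesis that keeps eggs from hatching, and L4 larvae were not exposed to it, so age and FUdR cannot be told apart in any comparison with L4. Each array pooled whole animals, and fewer cells of a type cannot be told apart from less RNA per cell.

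Argonaute proteins bind small RNAs and use them to find transcripts by base pairing. In C. elegans, microRNAs, Piwi-interacting RNAs (piRNAs), and small interfering RNAs (siRNAs) made from foreign or endogenous templates are loaded into different members of the family. Many members act mainly in the germline, which in a hermaphrodite makes sperm during late larval life and then switches to oocytes.

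Values are log2 signals as deposited, and a value near or under 4 was treated as background. Where a gene had several probe sets, the brightest on average was used, and a change was called where the adjusted p of limma was under 0.05 and the change was at least 2-fold. All 10 genes passed the filter of a mean of at least 4 in at least 1 age, as did 11758 genes of the array. Array medians lay between 5.42 and 5.73. The L4 arrays were less alike than the adult arrays. Over all probe sets the correlation between arrays of an age was 0.954 to 0.986 in L4, 0.995 at Day 6 and 0.993 to 0.995 at Day 15. The median SD of the 10 genes was 0.77 in L4, 0.22 at Day 6 and 0.16 at Day 15, against 0.41, 0.18 and 0.22 for all genes tested. L4 replicate 1 was the lowest of its group for 8 of the 10 genes, and L4 replicate 2 was the highest for 7. The summed level of 11 oocyte markers varied between the same arrays, at 12.90, 14.94 and 13.74 in L4 replicates 1, 2 and 3. The part of this spread in the changes from L4 was not tested beyond leaving out single arrays.

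**Figure D1:**
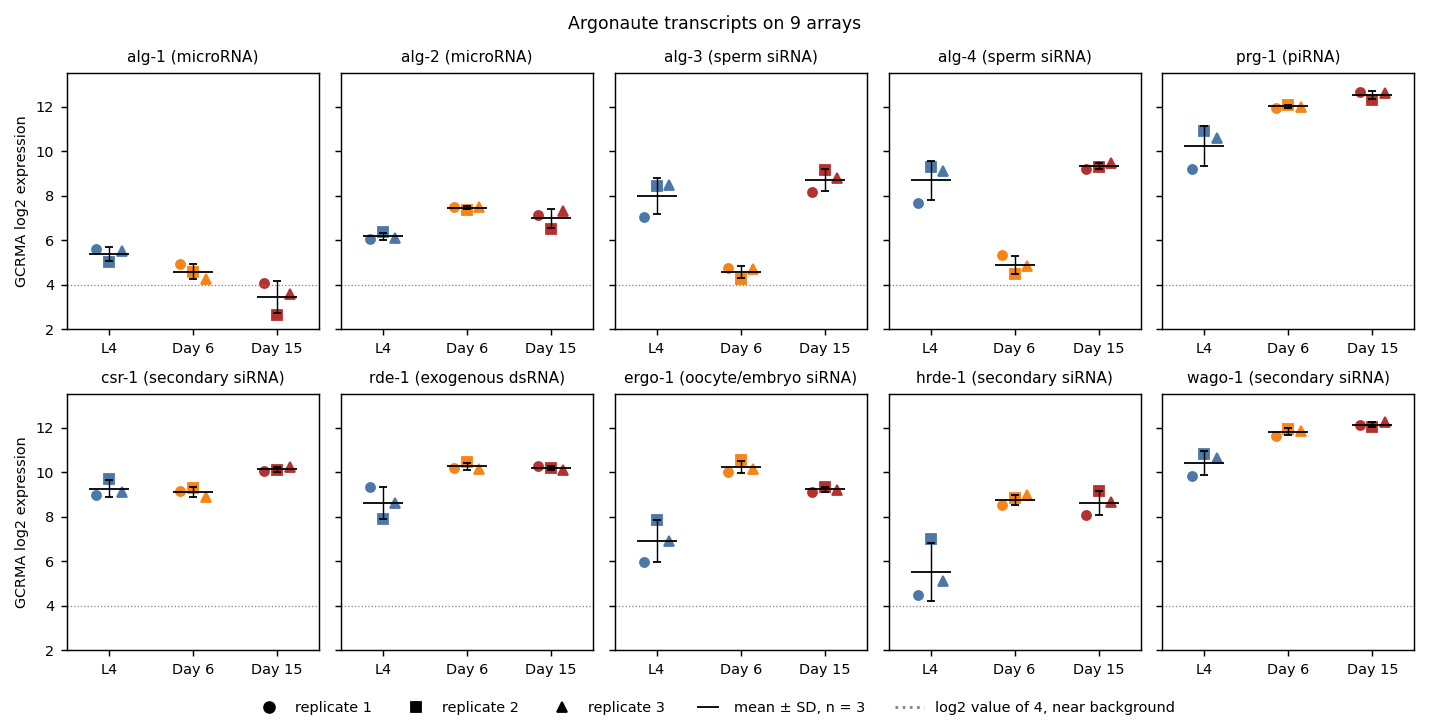
Log2 signal of the 10 Argonaute genes on each array, by age from L4 to Day 15, with 1 panel a gene; points are arrays, marked by replicate, black bars are the mean ± SD of 3 arrays and the dotted line is the value of 4. The Day 6 points of alg-3 and alg-4 lie below all of their L4 and Day 15 points, and those of ergo-1 and hrde-1 lie above all of their L4 points.

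Of the 10 genes, 6 were higher and 2 lower at Day 6 than in L4. Of all genes tested, 29.3% were higher and 24.6% lower in that comparison. Between the adult ages, 3 of the 10 were higher and 1 was lower at Day 15 than at Day 6, where 16.4% of all genes tested were higher and 17% lower. Against L4, 5 were higher and 1 was lower at Day 15, with 32.3% and 26.7% of all genes tested. In both comparisons the gene counted as lower was alg-1, whose probe sets ran in opposite directions, and the count was 0 with the mean of all probe sets. The median change of the 10 genes was 1.34 at Day 6 against L4, 0.12 at Day 15 against Day 6 and 1.23 at Day 15 against L4, beside 0.17, 0.00 and 0.23 over all genes tested. The arrays of both ages did not overlap for 9 of the 10 genes between Day 6 and L4, for 8 between Day 15 and Day 6 and for 8 between Day 15 and L4, with 72.2%, 68% and 73.6% of all genes tested. The comparisons share arrays, so their counts are not independent of each other. The 10 genes did not move as a block: alg-3 and alg-4 were lower at Day 6 than in L4 and higher at Day 15 than at Day 6, 6 genes were higher at Day 6 than in L4, and csr-1 was higher only at Day 15 against Day 6 by the call used.

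**Figure D2:**
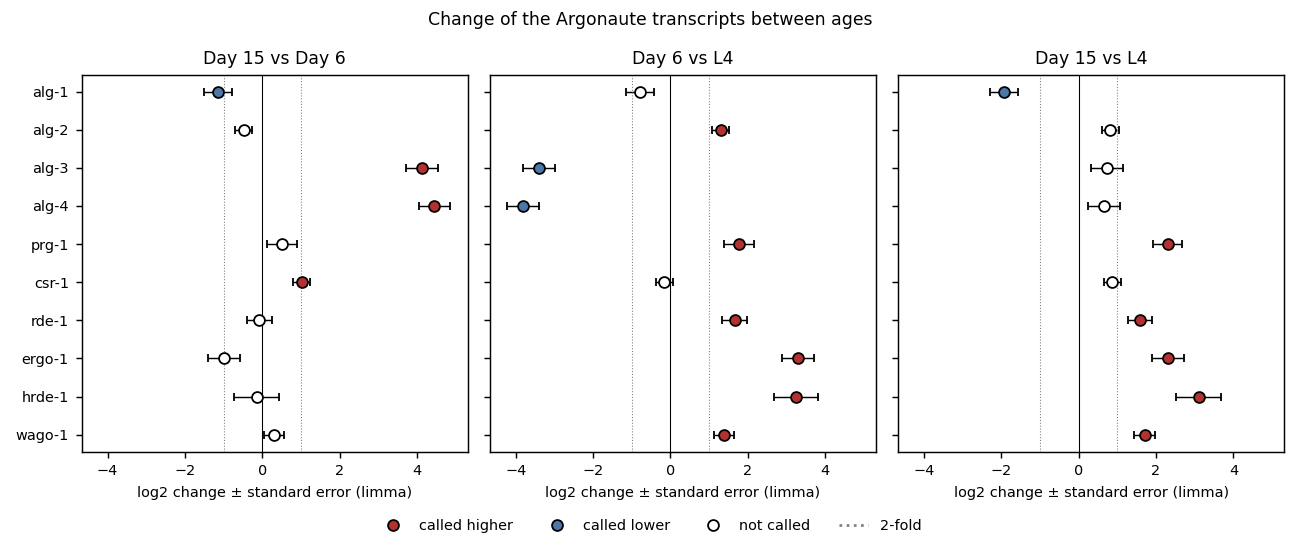
Log2 change of each of the 10 Argonaute genes in the 3 comparisons, later age minus earlier age, 1 panel a comparison; points are filled where the change was called, dotted lines mark 2-fold and error bars are standard errors from the limma fit of 9 arrays. The changes of alg-3 and alg-4 are below 0 at Day 6 against L4 and above 0 at Day 15 against Day 6, while the 6 genes called higher at Day 6 lie between 1.30 and 3.31.

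alg-3 and alg-4 encode a closely related pair of Argonautes that act in the germline during sperm formation, where they bind endogenous siRNAs. alg-3 (T22B3.2) was measured at 7.04, 8.43 and 8.48 in L4, 4.76, 4.24 and 4.72 at Day 6, and 8.18, 9.17 and 8.78 at Day 15. alg-4 (ZK757.3) was measured at 7.66, 9.28 and 9.12 in L4, 5.32, 4.50 and 4.82 at Day 6, and 9.22, 9.31 and 9.47 at Day 15. For both genes all 3 Day 6 arrays lay near background and below every other array, which limits how exactly the folds against Day 6 are known, while the Day 15 arrays overlapped those of L4. alg-3 fell 10.6-fold at Day 6 relative to L4 (log2 change -3.41, SE 0.41, adjusted p = 0.000109, limma) and was 17.6-fold higher at Day 15 than at Day 6 (4.14, SE 0.41, adjusted p = 5.23e-05). alg-4 fell 14-fold (-3.81, SE 0.41, adjusted p = 5.35e-05) and was 21.9-fold higher at Day 15 than at Day 6 (4.45, SE 0.41, adjusted p = 3.27e-05). Day 15 against L4 gave 0.73 for alg-3 and 0.65 for alg-4, neither past the test (adjusted p = 0.143 and 0.185, limma). Being lower at Day 6 than in L4 and higher again at Day 15 was met by 1024 genes, 8.71% of those tested.

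Every probe set of alg-3 and alg-4 carried a mark for probes that can also match other transcripts. The genes are near copies of each other, so part of the signal of either may come from the other. A further probe set of alg-4 (171980_x_at) showed the same order of ages, with 7.30, 9.18 and 9.09 in L4, 5.5, 4.25 and 4.94 at Day 6 and 8.79, 8.78 and 9.08 at Day 15. Its change was -3.63 at Day 6 against L4 and 3.99 at Day 15 against Day 6 (adjusted p = 0.00024 and 0.000221, limma on 14511 probe sets). The remaining alg-4 probe set was under 4 at every age.

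Most spermatogenesis markers had the same order of Day 6 and the other ages as this pair. Their summed level over the 11 measured markers was 12.68 to 13.49 in L4, 10.16 to 10.65 at Day 6 and 13.19 to 13.38 at Day 15, and their mean log2 level, to which each marker contributes equally, was 7.02 to 8.06, 5.42 to 5.81 and 8.02 to 8.22 at these ages. Of 9 that were tested, 9 were higher at Day 15 than at Day 6, with a median change of 2.96. At Day 6 against L4, 5 of the 9 were lower. Of all genes tested, 16.4% were higher in the first of these comparisons and 24.6% lower in the second. For the other 4 markers at Day 6 against L4, spe-11 gave -1.58, fer-1 1.09, spe-41 0.85 and spe-44 0.56. None of these 4 was called, and L4 and Day 6 arrays overlapped for each. gsp-3, a sperm protein phosphatase, was higher by 3.93 (adjusted p = 7.77e-05, limma), and spe-4, a presenilin needed to form spermatids, by 2.62 (adjusted p = 2.74e-05) at Day 15 than at Day 6. At Day 15 against L4, 3 of the 9 markers (33.3%) were higher and 2 lower, beside 32.3% and 26.7% of all genes tested. Of 6 early embryo markers measured, 4 were under 4 on every array and 0 were tested. The part of cell composition in the changes of alg-3 and alg-4 was not tested. The genes whose profile over the 9 arrays was nearest to that of alg-4 were ssp-16, of the sperm-specific protein family, B0205.10 and mps-3, with root mean square differences of 0.15, 0.20 and 0.23 after each gene was centred on its mean. Nearest to alg-3 were kel-10, C09H10.9 and B0205.10 at 0.17, 0.19 and 0.24, and alg-3 and alg-4 themselves differed by 0.30.

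**Figure D3:**
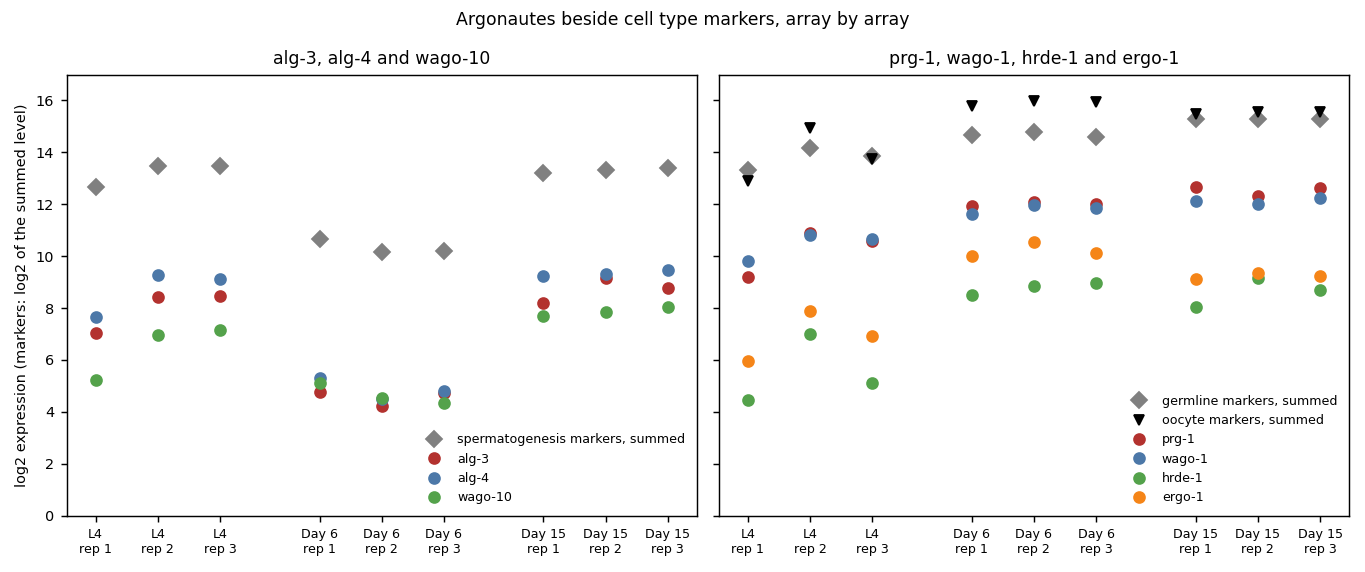
Log2 of the summed level of marker lists beside the log2 signal of Argonaute genes, array by array from L4 to Day 15; each point is 1 array, with spermatogenesis markers, alg-3, alg-4 and wago-10 on the left and germline and oocyte markers, prg-1, wago-1, hrde-1 and ergo-1 on the right. Spermatogenesis markers lie between 10.16 and 10.65 at Day 6 and at 12.68 or above at the other ages, while oocyte markers lie highest at Day 6.

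prg-1 encodes the Piwi Argonaute that binds piRNAs in the germline. prg-1 (D2030.6) was measured at 9.21, 10.89 and 10.58 in L4, 11.95, 12.07 and 12 at Day 6, and 12.65, 12.30 and 12.62 at Day 15. All adult arrays lay above all L4 arrays, and the Day 15 arrays lay above those of Day 6. It was 3.43-fold higher at Day 6 than in L4 (log2 change 1.78, SE 0.38, adjusted p = 0.00305, limma) and 4.91-fold higher at Day 15 than in L4 (2.30, adjusted p = 0.000627). Day 15 against Day 6 gave 0.52 (SE 0.38, adjusted p = 0.312), under 2-fold. In a fit of the adult arrays alone the same difference had an adjusted p of 0.0172 (limma). Its only probe set carries the mark for shared probes, and prg-2, a near copy, had its own probe set.

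The 8 other piRNA factors tested act in making or processing piRNAs, and 4 were higher and 0 lower at Day 6 than in L4. At Day 15 against Day 6, 4 were higher and 0 lower, and at Day 15 against L4, 6 were higher and 0 lower. The median changes of these 8 genes were 1.05, 0.94 and 1.77, and the shares called higher were 50%, 50% and 75%, beside 29.3%, 16.4% and 32.3% of all genes tested. snpc-4, a factor needed for transcription of piRNA genes, was higher in each comparison. It rose by 1.47 at Day 6 against L4 (adjusted p = 3.68e-05, limma) and by 1.23 at Day 15 against Day 6 (adjusted p = 0.000171). At Day 15 against L4 its change was 2.69 (adjusted p = 6.67e-07). prde-1, which acts at piRNA loci with snpc-4, was higher by 2.04 at Day 15 than at Day 6 (adjusted p = 0.000186), as was tofu-4 by 1.77 (adjusted p = 0.000754). parn-1, the nuclease that trims piRNA ends, was higher by 1.98 at Day 6 than in L4 (adjusted p = 0.00109), and tofu-5 by 1.16 (adjusted p = 0.000378). The summed level of the germline markers was 13.32 to 14.17 in L4, 14.60 to 14.77 at Day 6 and 15.27 to 15.28 at Day 15. Of 15 germline markers, 10 were higher at Day 6 than in L4 and 2 (glh-3 and syp-1) at Day 15 than at Day 6. At Day 15 against L4, 13 were higher, and 0 were lower in any comparison. These are 66.7%, 13.3% and 86.7% higher, beside 29.3%, 16.4% and 32.3% of all genes tested. The median changes of the 15 were 1.37, 0.60 and 2.45. At Day 15 against Day 6, htp-3 gave 1.38 without overlap of arrays but missed the threshold (adjusted p = 0.0512, limma). The part of the germline markers in the changes of prg-1 and the other germline Argonautes was not tested.

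ergo-1 encodes an Argonaute that binds endogenous siRNAs in oocytes and embryos. ergo-1 (R09A1.1) was measured at 5.98, 7.87 and 6.91 in L4, 10, 10.54 and 10.14 at Day 6, and 9.13, 9.36 and 9.22 at Day 15. The 3 ages did not overlap, with Day 6 highest and L4 lowest. It was 9.89-fold higher at Day 6 than in L4 (log2 change 3.31, SE 0.41, adjusted p = 0.000125, limma) and 4.98-fold higher at Day 15 than in L4 (2.32, adjusted p = 0.000898). Day 15 against Day 6 gave -0.99 (SE 0.41, adjusted p = 0.0805), and with the adult arrays alone an adjusted p of 0.00144 (limma), still just under 2-fold. The 11 oocyte markers had the same order of ages in their summed level, 12.90 to 14.94 in L4, 15.78 to 15.96 at Day 6 and 15.47 to 15.57 at Day 15. All 11 were higher at Day 6 than in L4, with a median change of 2.29, beside 29.3% higher of all genes tested. At Day 15 against Day 6, 0 of 11 were called, where 16.4% of all genes tested were higher and 17% lower. Their median change was -0.61 there. oma-2 gave -1.36 (SE 0.94, adjusted p = 0.276, limma), although its adult arrays did not overlap. The fit shared 1 estimate of spread with L4, where these markers varied widely, so this count does not show them unchanged. The part of the oocyte markers in the ergo-1 values was not tested.

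rde-1 encodes the Argonaute that first binds siRNAs cut from foreign double-stranded RNA. rde-1 (K08H10.7) was measured at 9.34, 7.90 and 8.60 in L4, 10.20, 10.45 and 10.16 at Day 6, and 10.27, 10.20 and 10.12 at Day 15. The adult arrays lay close together and above every L4 array, and among the L4 arrays replicate 1 was highest, the reverse of most of the 10 genes. It was 3.15-fold higher at Day 6 than in L4 (1.66, SE 0.32, adjusted p = 0.00166, limma) and 3.00-fold higher at Day 15 than in L4 (1.58, adjusted p = 0.00191). Day 15 against Day 6 gave -0.07 (SE 0.32, adjusted p = 0.88), and the 2 adult ages overlapped. Both rde-1 probe sets, like the only one of ergo-1, carry the mark for shared probes. The further probe set (173452_s_at) changed by 1.66 at Day 6 against L4 and 1.83 at Day 15 against L4 (adjusted p = 0.0009 and 0.000437, limma on probe sets). The genes nearest to rde-1 in profile were rabs-5, let-363 and mans-1, at 0.12 to 0.16.

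wago-1 and hrde-1 encode Argonautes that bind secondary siRNAs in the germline, wago-1 in the cytoplasm and hrde-1 in the nucleus, where it is needed for silencing to pass between generations. wago-1 (R06C7.1) was measured at 9.81, 10.82 and 10.65 in L4, 11.64, 11.96 and 11.85 at Day 6, and 12.12, 12.03 and 12.24 at Day 15. hrde-1 (C16C10.3) was measured at 4.47, 7.0 and 5.11 in L4, 8.52, 8.84 and 8.96 at Day 6, and 8.06, 9.14 and 8.68 at Day 15. Both genes had every adult array above every L4 array, and for hrde-1 the L4 arrays were spread widely, with replicate 2 far above replicate 1. wago-1 was 2.62-fold higher at Day 6 than in L4 (log2 change 1.39, SE 0.26, adjusted p = 0.00147, limma) and 3.26-fold higher at Day 15 than in L4 (1.70, adjusted p = 0.000388). hrde-1 was 9.49-fold higher at Day 6 than in L4 (3.25, SE 0.58, adjusted p = 0.00106) and 8.57-fold higher at Day 15 than in L4 (3.10, adjusted p = 0.00122). Leaving out single arrays gave 2.72 to 3.98 for hrde-1 at Day 6 against L4 and 2.57 to 3.84 at Day 15 against L4, the highest without L4 replicate 2 in both. Between the adult ages neither passed the test, with 0.31 for wago-1 (SE 0.26, adjusted p = 0.373) and -0.15 for hrde-1 (SE 0.58, adjusted p = 0.866). A further hrde-1 probe set (174604_at) read 2.47, 4.62 and 3.74 in L4, 6.40, 6.21 and 6.47 at Day 6 and 6.23, 5.64 and 6.54 at Day 15, and with values under 4 set to 4 its changes from L4, where most arrays were at background, were 2.15 at Day 6 and 1.93 at Day 15. The remaining hrde-1 probe set was under 4 at every age. In profile wago-1 was nearest to tbg-1, a gamma-tubulin, prp-39 and spo-11, the nuclease of meiotic recombination, at 0.09 to 0.10, and among the 10 genes to prg-1 at 0.31.

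csr-1 encodes an Argonaute whose endogenous siRNAs match genes expressed in the germline, and it is required for chromosome segregation in embryos. csr-1 (F20D12.1) was measured at 8.98, 9.70 and 9.11 in L4, 9.17, 9.28 and 8.87 at Day 6, and 10.05, 10.09 and 10.25 at Day 15. The L4 and Day 6 arrays overlapped, and all 3 Day 15 arrays lay above both. It was 2.03-fold higher at Day 15 than at Day 6 (log2 change 1.02, SE 0.22, adjusted p = 0.00502, limma), just past the fold limit. Leaving out Day 6 replicate 3 gave 0.91 (adjusted p = 0.0247) and leaving out Day 15 replicate 3 gave 0.96 (adjusted p = 0.0228), both under 2-fold. Day 6 against L4 gave -0.16 (adjusted p = 0.552) and Day 15 against L4 0.87 (adjusted p = 0.00697, under 2-fold), which passed 2-fold without L4 replicate 2 (1.09, adjusted p = 0.000492) and with equal array medians (1.04). The profiles nearest to csr-1 were F56G4.6, rpb-9, a subunit of RNA polymerase II, and tofu-2, a piRNA factor, at 0.10 to 0.15.

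RNA-dependent RNA polymerases and mutator proteins take part in making siRNAs, among them the secondary siRNAs that wago-1 and hrde-1 bind. Of 18 tested, 12 were higher and 0 lower at Day 6 than in L4, 3 higher and 0 lower at Day 15 than at Day 6, and 14 higher and 0 lower at Day 15 than in L4, with median changes of 1.19, 0.58 and 1.54. The 3 called at Day 15 against Day 6 are 16.7% of the list, near the 16.4% higher of all genes tested. In that comparison 17% of all genes tested were lower, and their median change was 0.00, against 0.58 for the list. Those called higher at Day 6 and Day 15 against L4 are 66.7% and 77.8%, beside 29.3% and 32.3% of all genes tested. rrf-2, of the polymerase family, was at background in L4 (mean 3.20) and was 35.2-fold higher at Day 6 and 77.4-fold higher at Day 15 than L4 when values under 4 were set to 4. mut-7, an exonuclease, was higher by 1.49 at Day 15 than at Day 6 (adjusted p = 0.00195, limma), or 0.79 with unmarked probe sets only, and by 3.09 at Day 15 than in L4 (adjusted p = 1.25e-05). nyn-1, a mutator-complex nuclease, was higher by 2.08 at Day 15 than at Day 6 (adjusted p = 0.00495). The call of rrf-2 at Day 15 against Day 6 (1.14, adjusted p = 0.0322) was lost when any of the adult arrays was left out, at adjusted p of 0.0617 to 0.0986. Of the polymerases known for germline secondary siRNAs, rrf-1 was higher by 1.06 at Day 6 than in L4 (adjusted p = 0.000496, limma). In that comparison ego-1 gave 0.71 (adjusted p = 0.0767), and it was higher by 1.56 at Day 15 than in L4 (adjusted p = 0.00213). The probe sets used for rrf-1 and ego-1 carry the mark for shared probes, so part of either signal may come from other transcripts.

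alg-1 and alg-2 encode the Argonautes that carry most microRNAs in the soma. For alg-1 (F48F7.1) the probe set used (174286_at) gave 5.61, 5.03 and 5.5 in L4, 4.92, 4.59 and 4.24 at Day 6, and 4.08, 2.66 and 3.59 at Day 15. A further alg-1 probe set (177915_at) gave 4.06, 3.55 and 4.04 in L4, 3.9, 3.76 and 3.77 at Day 6, and 4.92, 5.38 and 4.23 at Day 15. The probe sets of alg-1 ran in opposite directions, and both lay near background at Day 6. By the probe set used, alg-1 was lower at Day 15 than at Day 6 by -1.14 (SE 0.36, adjusted p = 0.0296, limma), or -0.56 with values under 4 set to 4, and lower at Day 15 than in L4 by -1.94 (adjusted p = 0.0012), or -1.35 with that floor. By the further probe set alg-1 was higher by 1.03 at Day 15 than at Day 6 (adjusted p = 0.0182, limma on probe sets), but its Day 6 values were all under 4 and the change was 0.84, under 2-fold, with that floor. Day 15 against L4 gave 0.96 (adjusted p = 0.0148, under 2-fold), or 0.81 with the floor. The remaining alg-1 probe set was under 4 on every array. No direction of alg-1 RNA is therefore given between the adult ages or between Day 15 and L4. Day 6 against L4 gave -0.80 for the probe set used (adjusted p = 0.0776).

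alg-2 (T07D3.7) was measured at 6.06, 6.36 and 6.08 in L4, 7.51, 7.37 and 7.51 at Day 6, and 7.15, 6.51 and 7.29 at Day 15. All adult arrays lay above all L4 arrays, and Day 15 replicate 2 was close to L4. It was 2.46-fold higher at Day 6 than in L4 (log2 change 1.30, SE 0.22, adjusted p = 0.000882, limma). Day 15 against L4 gave 0.82 (adjusted p = 0.00966, under 2-fold, but 1.05 without Day 15 replicate 2) and Day 15 against Day 6 -0.48 (adjusted p = 0.115). The further alg-2 probe set (179952_at) gave 5.55, 5.10 and 4.97 in L4, 5.28, 6.01 and 5.51 at Day 6, and 4.31, 4.88 and 4.66 at Day 15. Its ages were ordered differently, with every Day 15 array below every L4 array. It changed by 0.39 at Day 6 against L4 (adjusted p = 0.204), -0.98 at Day 15 against Day 6 (adjusted p = 0.0137) and -0.59 at Day 15 against L4 (adjusted p = 0.0661), none of them past the call. With the mean of both probe sets the change at Day 6 against L4 was 0.85, under 2-fold.

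**Figure D4:**
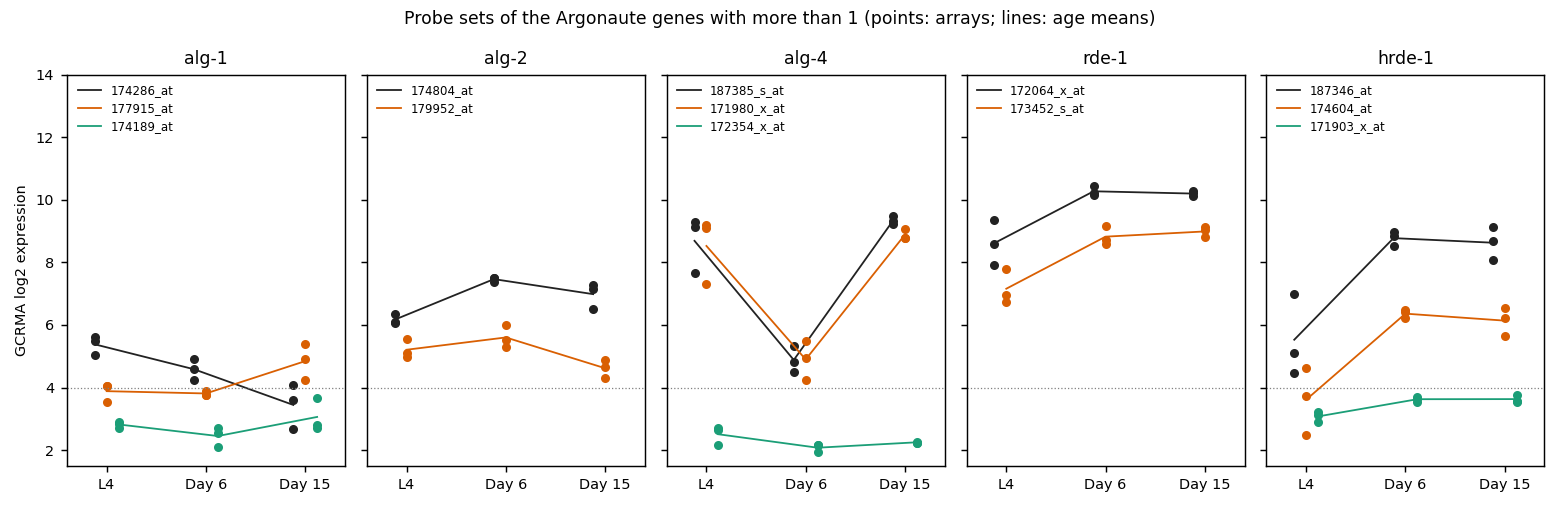
Log2 signal of each probe set of the 5 Argonaute genes with several probe sets, by age from L4 to Day 15; points are arrays and lines join the means of 3 arrays. Both probe sets of rde-1, and those of hrde-1 above 4, are higher at the adult ages than in L4, whereas those of alg-1 run in opposite directions at Day 15.

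Dicer, the Microprocessor and GW182 proteins, with the helicases and ERI proteins listed with them, make small RNAs or act with the microRNA Argonautes. Of 10 tested, 6 were higher and 0 lower at Day 6 than in L4, 1 higher and 0 lower at Day 15 than at Day 6, and 8 higher and 0 lower at Day 15 than in L4, with median changes of 1.58, 0.24 and 2.03. These are 60%, 10% and 80% higher, beside 29.3%, 16.4% and 32.3% of all genes tested. The GW182 genes ain-1 and ain-2 were called in no comparison. In the same order of comparisons, ain-1 gave -0.10, -0.41 and -0.51, and ain-2 gave 0.68, -0.14 and 0.55. dcr-1, which encodes Dicer, was higher by 2.54 at Day 6 than in L4 (adjusted p = 0.0006, limma) and by 3.41 at Day 15 than in L4 (adjusted p = 8.66e-05). drsh-1, which encodes the Microprocessor nuclease Drosha, was higher by 2.62 at Day 6 than in L4 (adjusted p = 7.18e-06). eri-5 had the largest called changes from L4 in the list, 3.31 at Day 6 and 4.29 at Day 15 (adjusted p = 0.000636 and 0.000113, limma). Leaving out single arrays gave 2.72 to 3.98 and 3.70 to 4.97 for eri-5. drh-1, a Dicer-related helicase, was the gene called between the adult ages, higher by 1.22 at Day 15 than at Day 6 (adjusted p = 0.00153), but by 0.60 with the mean of its probe sets.

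Of the other Argonautes on a fixed list of names, 11 were measured and 8 passed the filter. 5 were higher and 1 lower at Day 6 than in L4, and 1 was higher and 1 lower at Day 15 than at Day 6. At Day 15 against L4, 6 were higher and 0 lower. Those higher were 62.5%, 12.5% and 75% of the 8, beside 29.3%, 16.4% and 32.3% of all genes tested. In the same comparisons 24.6%, 17% and 26.7% of all genes tested were lower. wago-10 was measured at 5.21, 6.95 and 7.15 in L4, 5.12, 4.53 and 4.35 at Day 6, and 7.71, 7.84 and 8.03 at Day 15. Like alg-3 and alg-4 it was lower at Day 6 than in L4 (log2 change -1.77, SE 0.47, adjusted p = 0.00893, limma, with -2.38 without L4 replicate 1 and an adjusted p of 0.0849 by the methods' test) and higher at Day 15 than at Day 6 (3.19, SE 0.47, adjusted p = 0.000551). Its L4 and Day 15 arrays did not overlap (1.42, adjusted p = 0.0226), and that change was 0.81 without L4 replicate 1 and missed the threshold without Day 15 replicate 2 or 3 (adjusted p = 0.0563 and 0.0674). nrde-3, which encodes a nuclear Argonaute of the soma, was measured at 5.22, 4.54 and 4.62 in L4, 6.43, 7.79 and 7.25 at Day 6, and 5.81, 5.39 and 5.52 at Day 15. It was highest at Day 6, with all Day 15 arrays below those of Day 6 (-1.58, SE 0.34, adjusted p = 0.00496) and Day 6 higher than L4 (2.36, adjusted p = 0.00032).

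prg-2, the near copy of prg-1, was measured at 6.72, 7.33 and 7.82 in L4, 9.36, 9.75 and 9.07 at Day 6, and 10.54, 10.38 and 9.92 at Day 15. Its 3 ages ran in the same order as those of prg-1, with changes of 2.10 at Day 6 against L4 (adjusted p = 0.000372, limma), 0.89 at Day 15 against Day 6 (adjusted p = 0.0463, under 2-fold) and 2.99 at Day 15 against L4 (adjusted p = 3.64e-05). vsra-1 was measured at 7.30, 7.43 and 6.76 in L4, 10.39, 10.51 and 10.40 at Day 6, and 10.74, 10.48 and 10.63 at Day 15, and was higher by 3.27 at Day 6 than in L4 (adjusted p = 2.13e-06). wago-2 was higher by 2.39 at Day 6 than in L4 (adjusted p = 5.34e-05) and alg-5, a relative of the microRNA Argonautes, by 2.78 (adjusted p = 0.00574). The alg-5 change was 2.04 without L4 replicate 1 and 3.69 without L4 replicate 2, and it missed the threshold by the methods' test after adjustment (adjusted p = 0.0744). sago-1 was called in no comparison, with changes of 0.53, -0.70 and -0.17 at Day 6 against L4, Day 15 against Day 6 and Day 15 against L4. The call of ppw-2 at Day 15 against L4 (1.66, adjusted p = 0.0427) was lost without most single arrays, at adjusted p of up to 0.118, and the change was 0.81 without L4 replicate 1 and 2.34 without L4 replicate 2.

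**Figure D5:**
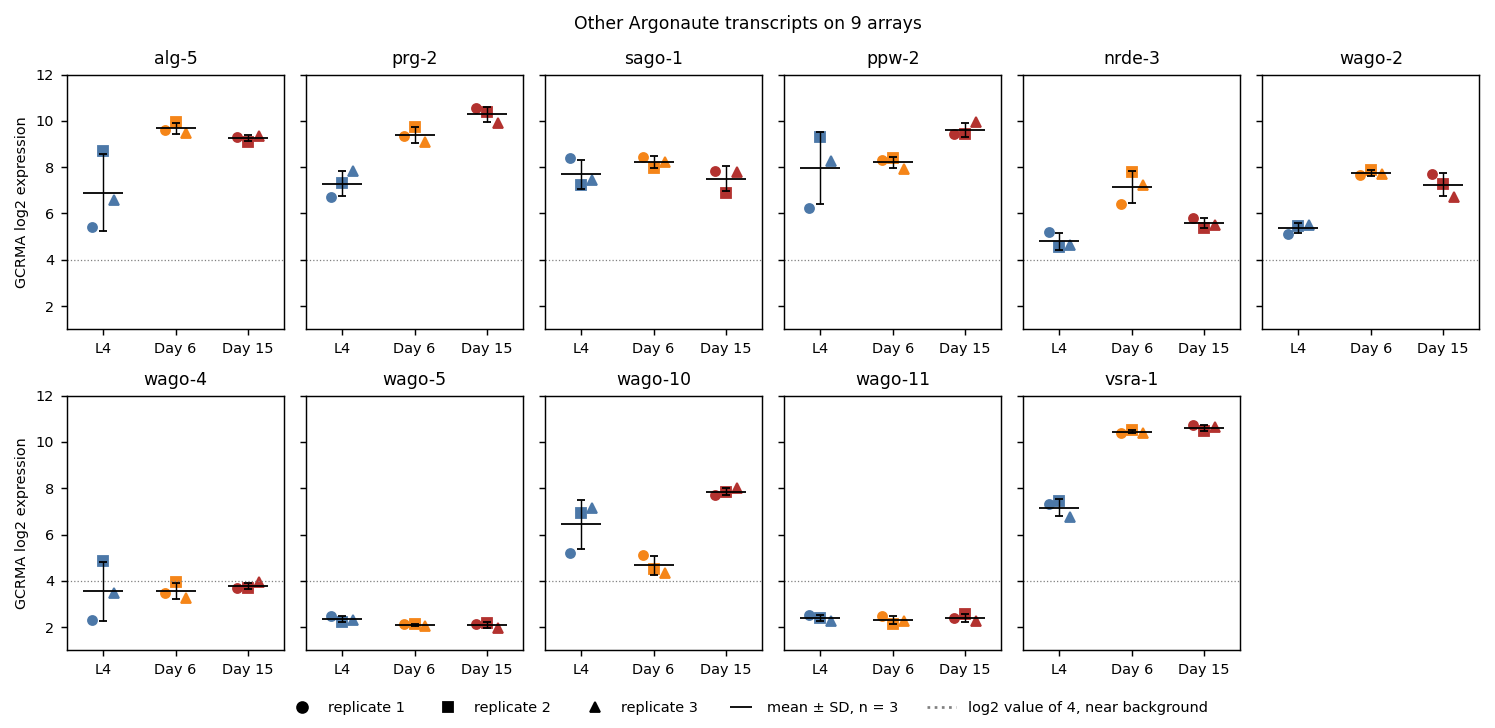
Log2 signal on each array of the 11 other Argonaute genes measured, by age from L4 to Day 15; points are arrays, black bars are the mean ± SD of 3 arrays and the dotted line is the value of 4. wago-10 is lowest at Day 6 and nrde-3 highest at Day 6, and every adult array of vsra-1, prg-2 and wago-2 lies above their L4 arrays.

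Factors of nuclear silencing and RNA transport work beside hrde-1, nrde-3 and rde-1. Of 11 tested, 5 were higher and 0 lower at Day 6 than in L4, and 0 were called at Day 15 against Day 6. At Day 15 against L4, 7 were higher and 1 lower. Those higher against L4 were 45.5% at Day 6 and 63.6% at Day 15, beside 29.3% and 32.3% of all genes tested. Of all genes tested, 24.6% and 26.7% were lower there, and 16.4% were higher and 17% lower between the adult ages. nrde-1, a nuclear factor recruited by nrde-3 and hrde-1, was higher by 2.94 at Day 6 than in L4 (adjusted p = 1.92e-05, limma) and by 3.93 at Day 15 than in L4 (adjusted p = 2.44e-06). set-32, a histone methyltransferase, was higher by 2.19 at Day 6 than in L4 (adjusted p = 0.00662), by 1.47 without L4 replicate 1 and by 2.79 without L4 replicate 2, and it missed the threshold by the methods' test after adjustment (adjusted p = 0.0771). znfx-1, a germ granule helicase, was higher by 1.62 at Day 6 than in L4 (adjusted p = 0.000289). sid-2, an intestinal membrane protein that takes up double-stranded RNA, went against its list and was lower at Day 15 than in L4 (-1.21, SE 0.23, adjusted p = 0.00119). Intestine markers moved the same way, with a summed level of 14.98 to 15.24 in L4, 14.05 to 14.23 at Day 6 and 11.91 to 12.38 at Day 15, and their part in the sid-2 change was not tested. Over the 4 pathway lists and the other Argonautes, 32 of 55 tested genes (58.2%) were higher and 1 lower at Day 6 than in L4, where 29.3% of all genes tested were higher. At Day 15 against L4, 41 of 55 (74.5%) were higher and 1 lower, beside 32.3% higher of all genes tested. At Day 15 against Day 6, 9 of 55 (16.4%) were higher and 1 lower, beside 16.4% higher and 17% lower of all genes tested. The median change of the 55 was 0.46 there, against 0.00 over all genes tested.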

How the data were processed

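The authors scanned Affymetrix C. elegans arrays, normalised them by GCRMA and deposited log2 values for each probe set, and MAS5 present calls named in the labels were not used. Of 22625 probe sets, 20766 matched 1 gene, 887 several and 972 none in the annotation used. Here 1 probe set stood for each gene (highest mean over 9 arrays, annotated to 1 gene). Genes with a mean of at least 4 in at least 1 age were fitted with limma 3.58.1 in R 4.3.3 over all arrays without a block, with Benjamini-Hochberg adjustment over 11758 genes. Scripts were tested on simulated data. Columns of other samples numbered 0.

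The members, the gene lists and the marker lists were chosen with earlier results of these data known. Named were all members, all other Argonautes measured, genes called against their list, and some of the up to 3 largest called genes per pathway list and comparison. Up to 3 markers per list were named, with further spermatogenesis markers that were not called at Day 6 against L4. The 3 nearest profiles are given only for alg-3, alg-4, rde-1, wago-1 and csr-1. rrf-1, ego-1, ain-1, ain-2, the markers oma-2, htp-3, rol-6 and bli-1, and the sid-2 intestine comparison were added after values were seen. Of the listed names, wago-3, wago-6, wago-7, wago-8, mut-2, tofu-3 and cde-1 were not matched. The first of these, the wago names, are other names of ppw-2, sago-2, ppw-1 and sago-1 on the same list. ppw-1, sago-2, tofu-1 and tofu-6 were not measured by a probe set of their own. wago-4, wago-5, wago-11 and set-25 did not pass the filter. Alternatives covered the filter, choice of probe set, normalisation, variance model, replicate block, left-out arrays and the methods' test. Promoter sequence was not analysed here. The number of arrays limits precision, and populations were the replicates.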

Additional observations from a re-analysis of the deposited data

How the results depend on the processing

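Of the values for single genes under other settings, 1627 kept direction and call, 44 lost the call, 5 gained it and 10 changed sign, and the cause of these changes was not tested beyond the construction of each setting. With only probe sets free of the mark for shared probes, which leaves 5 members, those higher numbered 3 and those lower 0 at Day 6 against L4, 1 were higher at Day 15 against Day 6, and 2 were higher at Day 15 against L4. The member lower at Day 15 than at Day 6 (alg-1) was lost, leaving 0, with the mean of all probe sets, with values under 4 set to 4, with the methods' test unadjusted or adjusted, and with every probe set fitted on its own. At Day 15 against L4, 0 were lower with the mean of all probe sets and with every probe set on its own. Leaving out single arrays gave 6 higher and 2 lower at Day 6 against L4 in each case, 2 to 3 higher and 0 to 1 lower at Day 15 against Day 6, and 5 to 6 higher and 1 lower at Day 15 against L4. The alg-1 call at Day 15 against Day 6 was lost without Day 6 replicate 1 (adjusted p = 0.104, limma), Day 6 replicate 2 (0.0754), Day 15 replicate 2 (0.0789) or Day 15 replicate 3 (0.0602).

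Signs changed as follows. At Day 15 against Day 6, alg-1 gave 0.17 with the mean of all probe sets and 1.03 with probe set 177915_at. rde-1 gave 0.047 with the mean of all probe sets and 0.17 with probe set 173452_s_at, and -0.13 to 0.017 without single arrays, the highest without Day 6 replicate 2. hrde-1 gave -0.40 to 0.14 without single arrays, the highest without Day 15 replicate 1. At Day 6 against L4, csr-1 gave 0.037 with equal array medians and -0.30 to 0.062 without single arrays, the highest without L4 replicate 2. At Day 15 against L4, alg-1 gave 0.96 with probe set 177915_at and alg-2 -0.59 with probe set 179952_at. Equal array medians moved the median change of all genes to 0.37 at Day 6 against L4 and 0.41 at Day 15 against L4.

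With the replicate block the members counted 6 higher and 2 lower at Day 6 against L4, 3 and 1 at Day 15 against Day 6, and 5 and 1 at Day 15 against L4, as without it. Arrays that share a replicate number had deviations correlated from -0.06 to 0.19, so the numbers were not taken to pair the populations. The 3 arrays an age, the spread of the L4 arrays and signals near background limit these values.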

Other observations

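Among markers of somatic tissues, those called at Day 15 against Day 6 were lower. Of 7 intestine markers, 0 were higher and 6 lower at Day 15 than at Day 6. The counts were 0 and 3 of 5 body wall muscle markers, 0 and 2 of 6 neuron markers and 0 and 2 of 8 hypodermis markers. In that comparison 16.4% of all genes tested were higher and 17% lower. Some hypodermis markers were under 4 at both adult ages and passed the filter only through L4, which limits their count. Among them were rol-6, with means of 3.04 at Day 6 and 2.88 at Day 15, and bli-1, with 2.52 and 2.61. vha-6, an intestinal proton pump subunit, was lower at Day 15 than at Day 6 by -3.19 (adjusted p = 4.41e-06, limma), and unc-54, a muscle myosin, by -2.78 (adjusted p = 3.05e-05). The summed level of muscle markers was 14.30 to 14.41 in L4, 13.53 to 13.68 at Day 6 and 11.70 to 12.08 at Day 15, and that of neuron markers 12.18 to 12.34, 12.06 to 12.18 and 11.38 to 11.73 at the same ages. These values are on the scale on which each array was normalised as a whole.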
